A study of Homo sapiens with 18 samples.

Results

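The MYC and MAX network is a family of transcription factors that pair with each other through a basic helix-loop-helix leucine zipper domain and compete for the same DNA site, the E-box. The genes described here were the 10 rows of the count tables whose symbol was MYC, MAX, MXD1, MXD3, MXD4, MXI1, MNT, MGA, MLX or MLXIP, out of 43735 gene rows. All 10 were present in the raw and in the normalized table, and all 10 had enough counts to be tested. They were followed in MM1R and MM1S cells, the dexamethasone-resistant and dexamethasone-sensitive sublines of the MM.1 multiple myeloma line. Each line was left untreated (UT), given 5 µM RSL3 for 3 h, or given 2 µM ferrostatin-1 (Fer-1) for 2 h before the same RSL3 treatment. RSL3 is an inhibitor of the lipid peroxide-reducing enzyme GPX4 and triggers ferroptosis, an iron-dependent form of cell death, and Fer-1 is a lipid radical scavenger that blocks it. The 6 groups held 3 libraries each, taken at passages 4, 6 and 7 of MM1R and at passages 16, 22 and 23 of MM1S, so that replicates 1, 2 and 3 of a line were different passages of 1 culture line and the treatments of a passage were matched.

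MYC binds DNA as a dimer with MAX and activates genes of ribosome biogenesis, metabolism and cell growth. MXD1, MXD3, MXD4, MXI1 and MNT also pair with MAX, and these dimers recruit the SIN3-HDAC corepressor to E-boxes. The output of the network thus depends in part on which partner MAX carries. MGA is a very large MAX partner that belongs to a Polycomb-type repressor complex with PCGF6, L3MBTL2 and E2F6. MLX takes the place of MAX in a parallel branch, where it pairs with MLXIP (MondoA), a glucose-6-phosphate-responsive activator of TXNIP and ARRDC4. Multiple myeloma cells commonly carry an activated MYC gene, and the myeloma factor IRF4 and MYC regulate each other.

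The promoters of 3 members that changed most clearly after RSL3 and have a single listed start are shown as the 250 bases upstream of that start, from the RefSeq table on GRCh38.p14, all on the plus strand. Capitals mark a motif: the core of an antioxidant response element in MXD1 (chr2:69914859-69915108), an E-box in MLX (chr17:42566850-42567099) and a cyclic AMP response element (CRE) in MLXIP (chr12:122078506-122078755).
MXD1: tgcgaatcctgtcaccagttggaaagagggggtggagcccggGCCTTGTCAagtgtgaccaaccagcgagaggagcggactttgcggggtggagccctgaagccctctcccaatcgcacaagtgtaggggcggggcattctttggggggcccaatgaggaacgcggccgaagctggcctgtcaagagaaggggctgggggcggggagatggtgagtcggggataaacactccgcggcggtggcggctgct
MLX: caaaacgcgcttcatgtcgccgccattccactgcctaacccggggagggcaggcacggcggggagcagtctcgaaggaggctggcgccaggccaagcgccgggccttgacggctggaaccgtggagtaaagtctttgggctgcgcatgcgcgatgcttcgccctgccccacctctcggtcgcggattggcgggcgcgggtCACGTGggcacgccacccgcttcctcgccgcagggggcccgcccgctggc
MLXIP: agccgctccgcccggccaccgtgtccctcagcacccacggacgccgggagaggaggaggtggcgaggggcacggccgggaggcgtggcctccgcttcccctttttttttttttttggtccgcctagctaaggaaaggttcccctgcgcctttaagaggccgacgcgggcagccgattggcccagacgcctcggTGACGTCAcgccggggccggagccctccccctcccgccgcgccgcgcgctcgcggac
The motifs searched on both strands were the E-box CACGTG, the antioxidant response element core TGACNNNGC, the AP-1 site TGANTCA, the CRE TGACGTCA and the ATF4 element TGATGNAA, and no match overlapped another. The MXD1 match stood 208 to 200 bases before the start, the MLX match 50 to 45 bases and the MLXIP match 57 to 50 bases before it. Among 35116 listed promoters of this length, 10.9% held the antioxidant response element core, 6.34% an E-box and 1.65% a CRE. The promoters of 9 members were searched, all but MYC. Of these, MXD4, MNT and MLX held 1 E-box each, and none of the 3 listed starts of MXI1 had any of the 5 motifs. These matches describe the letters of the window and are not measured binding sites.

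On hg19 the annotation placed MYC at chr8:128747680-128755197 on the plus strand, MAX at chr14:65472892-65569413 on the minus strand and MGA at chr15:41913332-42065279 on the plus strand. Of the genes for MAX-binding repressors, MXD1 lay at chr2:70124820-70170077 (plus), MXD3 at chr5:176728462-176739758 (minus), MXD4 at chr4:2249159-2263836 (minus), MXI1 at chr10:111967363-112047123 (plus) and MNT at chr17:2287367-2304398 (minus). MLX lay at chr17:40719090-40725257 and MLXIP at chr12:122516628-122631894, both on the plus strand. Several of these loci overlap neighbouring genes. PSMC3IP overlapped MLX and held 201 to 417 counts a library, SNRNP27 overlapped MXD1 and held 577 to 937, RAB24 and PRELID1 overlapped MXD3, and CASC11, which overlapped MYC, held 0 to 3 counts. The strand setting of the counting was not given in the sources used here, so reads from such neighbours cannot be told apart from the member's own. SNRNP27 differed by -0.01 and PSMC3IP by -0.23 on the log2 scale between RSL3 and untreated cells averaged over both lines, and neither passed the test.

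The libraries held 17635438 to 19368343 counts each. The plasma cell markers SDC1, CD38, TNFRSF17, SLAMF7, PRDM1, XBP1 and IRF4 were all expressed in every library, while CD3D, MS4A1, LYZ and KLRD1 held 0 to 2 counts and CD14 0 to 7. Of the other blood cell markers, CD3E held 63 to 211 counts and HBB 65 to 236. Replicate 2 of MM1R with Fer-1 and RSL3 stood apart. Its place was measured between the mean of the other 8 MM1R libraries and the MM1S mean. The genes used were 6 with an at least 8-fold higher mean level in MM1S. This library lay a median of 48.5% of the way towards MM1S. The other MM1R libraries set the start of that scale and so lie near it, at medians of -0.586% to 3.44%. Whether the sample was mixed or mislabelled was not tested. The MM1R values with Fer-1 include this library, and the part of its MM1S-type expression in them was not tested beyond leaving it out. Replicate 1 of MM1S and replicate 3 of MM1R had the highest heme oxygenase level of their RSL3 groups, 2298 and 1404 CPM of HMOX1 (CPM, a library's counts put on a common scale by its TMM-adjusted total), against 310 and 435 CPM in the other MM1S libraries and 237 and 243 CPM in the other MM1R libraries. HMOX1 was chosen after the values were seen, and it serves here only to describe how unequal the RSL3 libraries were. The values of MYC, MXD1, MXI1, MLX, MLXIP and MNT that moved most without 1 of these libraries are given both ways.

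In untreated cells MYC was by far the most abundant transcript of the network per length of transcript. Its level was 183 ± 17.58 CPM per kb in MM1R and 167 ± 14.2 CPM per kb in MM1S (SD, n = 3), against 17.1 ± 0.779 and 14.9 ± 0.659 CPM per kb for MAX, the partner it needs. MXD3 and MLX followed in both lines at 38.9 to 44.1 CPM per kb, a range within which their spreads overlapped. MXD4 stood at 22.8 ± 4.61 CPM per kb in MM1R and MXI1 at 17.8 ± 1.53, where the range of MXI1 met those of both MXD4 and MAX. MNT was at 10.1 ± 0.687 CPM per kb, and MGA at 3.77 ± 0.646 and MXD1 at 3.47 ± 1.18 CPM per kb did not separate from each other in MM1R. MLXIP was the least abundant member in each of the 6 groups, at 1.83 ± 0.265 CPM per kb in untreated MM1R and 1.43 ± 0.0530 in untreated MM1S. Lengths were those of 1 annotated transcript a gene, so the order between members depends on that choice.

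The first comparison asked whether the lines differ in the network before treatment, and in these data no member passed the test (edgeR, FDR below 0.05, where FDR is the p-value adjusted over all 14281 genes tested), while 10.5% of all tested genes did. At an unadjusted p below 0.05 there were 2 of the 10 members, MGA and MLXIP, and 24.8% of all tested genes. MGA was at 51.4, 49.4 and 36.9 CPM in untreated MM1R and 62.6, 63.9 and 71.9 CPM in untreated MM1S. Its fold change was -0.53 on the log2 scale (SE 0.173, FDR 0.0633). The MGA difference passed under DESeq2, which called 1 member. MLXIP was higher in MM1R by 0.35 (FDR 0.112). The untreated level of MYC overlapped between the lines, at 626, 661 and 753 CPM in MM1R and 579, 604 and 680 CPM in MM1S, and the interval of its difference ran from -0.67 to 0.93. Outside the 10 members the lines did differ in the MYC relatives MYCL and MYCN, which were lower in MM1R with log2 fold changes of -1.52 each (FDR 0.0353 and 0.0338).

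RSL3 against untreated cells asked which members differ after 3 h of RSL3. Averaged over both lines, the repressors MXD1 and MXI1 rose, MLX and its partner MLXIP fell, and MYC, MAX, MXD3, MXD4, MNT and MGA did not pass the test. In these bulk libraries, less transcript per cell and fewer cells with the transcript cannot be told apart. In all, 4 of the 10 members passed, 2 in each direction, where 15.5% of all tested genes passed, 8.7% higher and 6.81% lower. The median log2 fold change was -0.10 over the 10 members and -0.00013 over all tested genes.

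**Figure D1:**
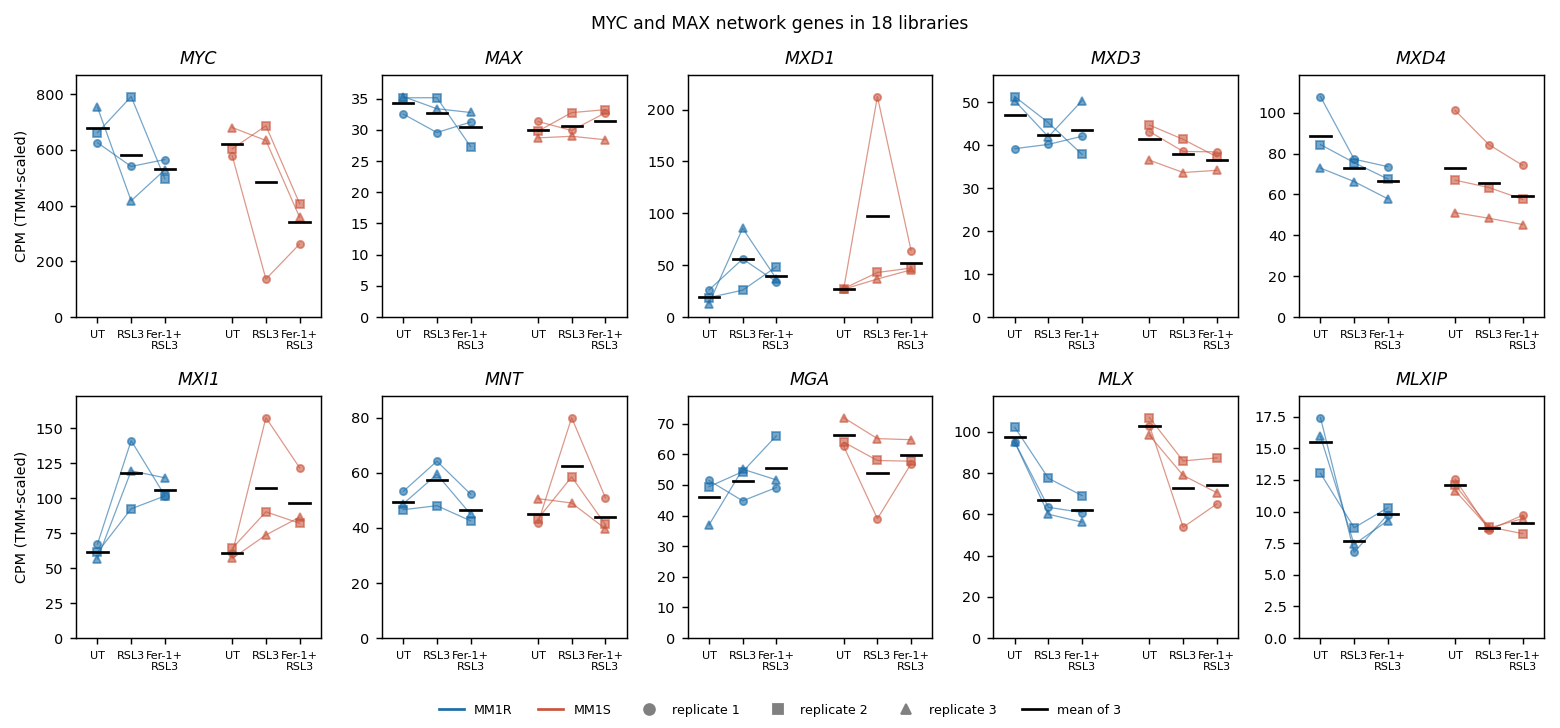
CPM (TMM-scaled, linear axes from 0) of the 10 network genes in the 18 libraries, with the libraries of a passage joined by a line and the mean of each group as a black bar. MXI1 lay above and MLX and MLXIP lay below the untreated libraries in every RSL3 library of both lines, while MYC in RSL3 libraries ranged from 136 to 791 CPM.

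MXD1, the MAX partner best known for rising when cells stop dividing and differentiate, showed the widest range of the 10 on a log scale. In MM1R, taking passages 4, 6 and 7 in turn, it was at 26.1, 18.7 and 13.0 CPM untreated, 56.0, 25.9 and 85.5 CPM with RSL3, and 34.0, 48.5 and 36.9 CPM with Fer-1 and RSL3. In MM1S it was at 27.2, 27.4 and 26.9 CPM untreated, 212.5, 42.9 and 36.6 CPM with RSL3, and 64.1, 47.2 and 45.5 CPM with Fer-1 and RSL3. MXD1 was higher after RSL3 than untreated in 6 of 6 passages, and the MM1S groups did not overlap (12.6% of all tested genes were separate in this direction there), whereas in MM1R the lowest RSL3 library met the highest untreated one. The log2 fold change was 1.53 (SE 0.530, FDR 0.128) in MM1R and 1.84 (SE 0.529, FDR 0.0613) in MM1S, neither of which passed. Averaged over both lines it was 1.68 (SE 0.374, FDR 0.00668), and MXD1 was the single member to pass as a DEG (an FDR below 0.05 together with a change of more than 1 on the log2 scale), as 3.24% of all tested genes did. Replicate 1 of MM1S with RSL3 set much of this value, since without it the log2 fold change was 0.56 in MM1S and 1.04 averaged (FDR 0.00689). The library with the highest MXD1 of each RSL3 group was also the one with the highest HMOX1, and the part of that difference between libraries in the result was not tested.

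MXI1, a second MXD-type repressor, rose as well. In MM1R it was at 67.3, 61.4 and 56.7 CPM untreated and 141, 92.5 and 120 CPM with RSL3. The MM1S libraries were at 60.7, 64.2 and 57.0 CPM untreated and 158, 90.3 and 73.8 CPM with RSL3. No RSL3 library of either line overlapped the untreated ones, which was so for 6.13% of all tested genes in the higher direction. The log2 fold change was 0.93 in MM1R (SE 0.225, FDR 0.0322), 0.82 in MM1S (SE 0.225, FDR 0.0515) and 0.88 averaged (SE 0.159, FDR 0.00171). With the passage as a block the MM1S value also passed (0.75, FDR 0.0147). Without replicate 1 of MM1S with RSL3 it was 0.44 (FDR 0.277). The MM1R call was lost, with FDR of 0.0758 to 0.152, when replicate 1, 2 or 3 of the untreated or replicate 1 or 3 of the RSL3 libraries was left out. Averaged over both lines, MXI1 passed in every fit that left 1 library out, with a log2 fold change of at least 0.69.

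MLXIP encodes MondoA, the glucose-6-phosphate sensor of the network, and it gave the smallest FDR of the 10 members after RSL3 in MM1R and averaged over both lines. It fell in MM1R from 17.4, 13.0 and 15.9 CPM to 6.78, 8.72 and 7.40 CPM. The MM1S libraries went from 12.5, 12.1 and 11.6 CPM untreated to 8.54, 8.79 and 8.70 CPM with RSL3. The RSL3 libraries lay below the untreated ones without overlap in both lines, as 5.52% of all tested genes did. The log2 fold change was -1.02 in MM1R (SE 0.139, FDR 0.00252), where MLXIP was a DEG as 1.2% of tested genes were, and -0.48 in MM1S (SE 0.139, FDR 0.063). With the passage as a block the MM1S value passed too (FDR 0.0387). The average was -0.75 (SE 0.0983, FDR 0.000176). The MM1R value minus the MM1S value was -0.54 (95% interval -0.95 to -0.13), which did not pass after adjustment over all genes (unadjusted p = 0.0137), so a difference between the lines was not shown.

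MLX, the partner through which MLXIP binds DNA, fell with it. Its levels in MM1R were 95.1, 102 and 95.1 CPM untreated and 63.4, 77.5 and 60.1 CPM with RSL3, and in MM1S 103, 107 and 98.3 CPM untreated and 53.8, 85.9 and 78.9 CPM with RSL3. Every RSL3 library was below every untreated library of its line, as was so in both lines for 5.52% of all tested genes. The log2 fold change was -0.54 in MM1R (SE 0.156, FDR 0.0658), -0.50 in MM1S (SE 0.155, FDR 0.0839) and -0.52 averaged (SE 0.11, FDR 0.00491). With the passage as a block MLX passed in each line alone, at -0.55 in MM1R (FDR 0.00733, where 13.1% of all tested genes passed) and -0.52 in MM1S (FDR 0.0108). In MM1R, 2 of the 10 members passed without the block where 3.36% of all tested genes did, and in MM1S none passed where 3.67% did. With the block 4 members passed in MM1S, MNT among them (FDR 0.0472), where 13.3% of all tested genes did. Without replicate 1 of MM1S with RSL3 the MM1S values were -0.31 for MLX (FDR 0.342), 0.25 for MNT (FDR 0.536) and -0.46 for MLXIP (FDR 0.2).

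**Figure D2:**
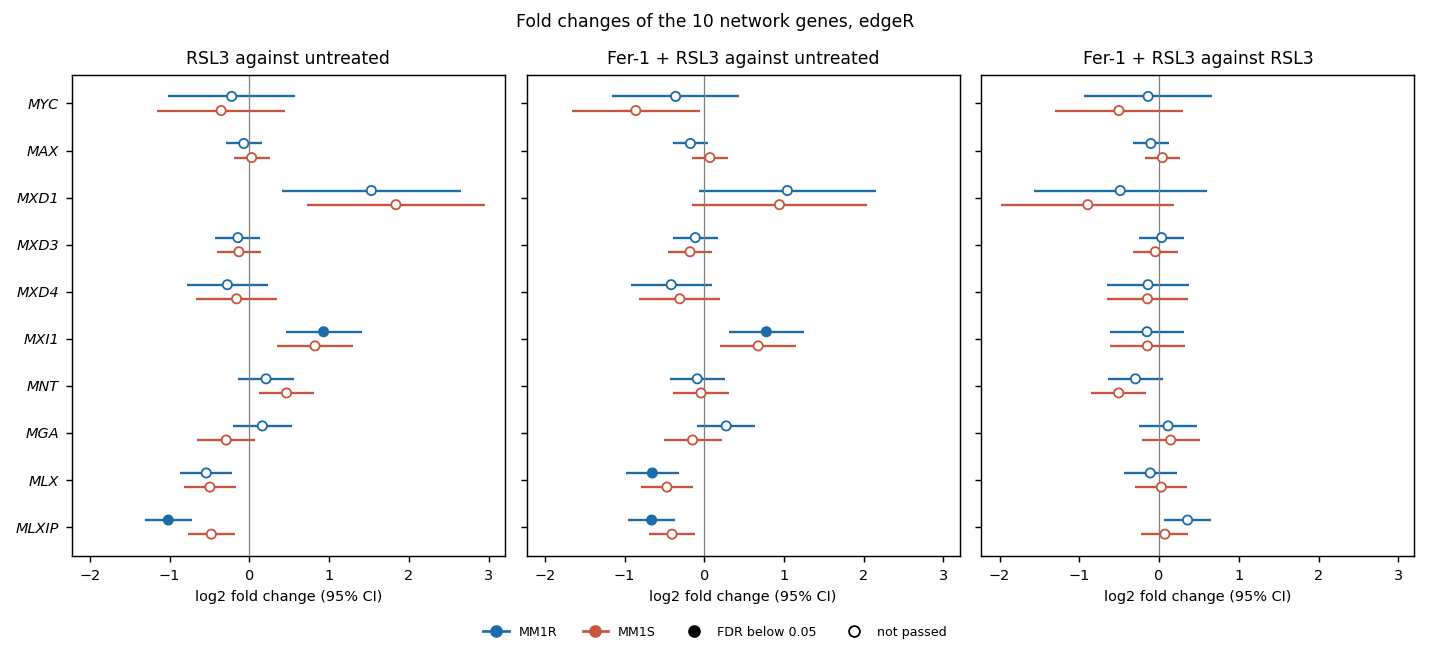
Log2 fold changes (points) with 95% confidence intervals (lines) of the 10 network genes in the 3 comparisons of treatments, for MM1R (blue) and MM1S (red), with filled points for an FDR below 0.05. The intervals of MXD1, MXI1, MLX and MLXIP exclude 0 in both lines for RSL3 against untreated, as does that of MNT in MM1S, and 2 points, MXI1 and MLXIP in MM1R, are filled there.

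MYC transcript did not change by the test, and its RSL3 libraries disagreed with each other. The untreated levels given above lay between 579 and 753 CPM. With RSL3 the MM1R libraries were at 541, 791 and 417 CPM and the MM1S libraries at 136, 687 and 634 CPM. MYC was thus lower than in the matched untreated library in 4 of 6 passages and higher in both replicates 2. The log2 fold change was -0.22 in MM1R (SE 0.379, FDR 0.825) and -0.35 in MM1S (SE 0.379, FDR 0.661). The 95% interval of the average over both lines was -0.85 to 0.28. Without replicate 1 of MM1S with RSL3, the MM1S value was 0.09 (FDR 0.921), and without replicate 3 of MM1R with RSL3 the MM1R value was -0.02 (FDR 0.989). The lowest MYC library of each RSL3 group was the one with the highest MXD1 and the highest HMOX1.

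MAX, the shared partner, was the steadiest member by its fold change after RSL3. It ranged from 27.3 to 35.3 CPM over all 18 libraries, and its log2 fold change with RSL3 was -0.02 averaged over the lines, with an interval of -0.18 to 0.14. MXD3, a repressor linked to dividing cells, ranged from 33.7 to 51.4 CPM and changed by -0.14 (FDR 0.353). MXD4 changed by -0.22 (FDR 0.429) and was lower than the matched untreated library in 6 of 6 passages, and its untreated levels differed between passages, at 108, 84.4 and 72.9 CPM in MM1R and 101, 67.0 and 51.1 CPM in MM1S. With the passage as a block, which removes such differences, MXD4 passed for the average of the lines (-0.20, FDR 0.0195), where 30.4% of all tested genes did.

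MNT, a broadly expressed MAX partner that opposes MYC, was at 53.3, 46.6 and 48.8 CPM untreated and 64.3, 48.1 and 59.5 CPM with RSL3 in MM1R. In MM1S it was at 41.8, 43.4 and 50.6 CPM untreated and 80.1, 58.5 and 49.1 CPM with RSL3, so the groups overlapped in both lines. Its averaged log2 fold change was 0.34 (SE 0.116, FDR 0.0583), and it passed with the passage as a block (0.32, FDR 0.0216). MGA changed by 0.16 in MM1R and -0.29 in MM1S, and neither passed. The difference between the lines in the RSL3 response passed for none of the members or of all tested genes (edgeR, smallest FDR 1), and 1 member and 222 genes had an unadjusted p below 0.05.

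The pair MXD1 and MXI1, chosen here because both rose, is given with its share of the repressor transcripts as a description. MXD1 and MXI1 made up 21.6% ± 2.30 (SD, n = 3) of the summed per-kb level of MXD1, MXD3, MXD4, MXI1 and MNT in untreated MM1R and 38.1% ± 6.69 with RSL3. The same share in MM1S was 25.2% ± 2.01 untreated and 40.2% ± 11.1 with RSL3. Without replicate 1 of MM1S with RSL3 the mean share of that group was 33.8%, and without replicate 3 of MM1R with RSL3 that of MM1R was 36.1%. The MYC level divided by that sum was 1.87 ± 0.239 in untreated MM1R and 1.90 ± 0.375 in untreated MM1S, and 1.402 ± 0.587 and 1.38 ± 1.00 with RSL3, with libraries from 0.232 to 2.08 that overlapped the untreated ones. Without replicate 1 of MM1S with RSL3 the mean ratio of that group was 1.955, and without replicate 3 of MM1R with RSL3 that of MM1R was 1.63. These ratios are of transcripts and say nothing of protein amounts.

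**Figure D3:**
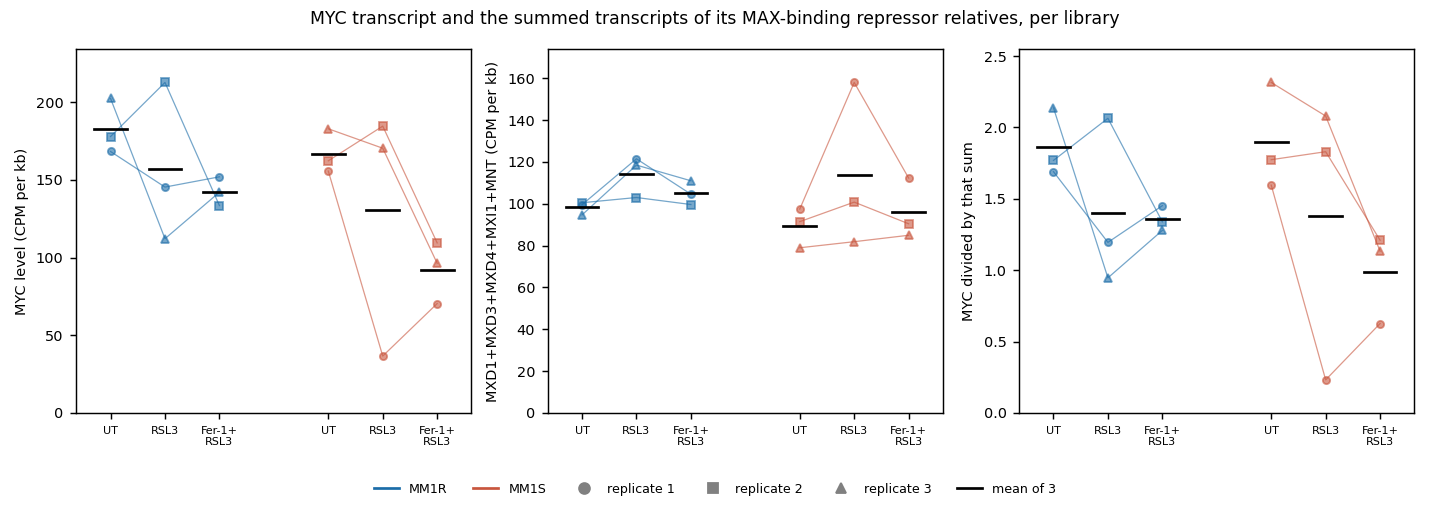
MYC level, summed level of the 5 MAX-binding repressors of the MXD and MNT type (both in CPM per kb of transcript) and their ratio in each library, with the libraries of a passage joined and group means as black bars. The ratio with Fer-1 and RSL3 lay between 0.627 and 1.45 and below every untreated library of the same line, while the RSL3 libraries spanned 0.232 to 2.08. MYC, MXD1 and MXI1 enter this ratio and were each separate from untreated with Fer-1 and RSL3, so the ratio is not a separate result.

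Fer-1 with RSL3 against RSL3 alone asked whether blocking lipid peroxidation restores the members, and no member passed in MM1R, in MM1S or averaged over both lines. The share of all tested genes that passed was 0%, 0% and 0.119%, and at an unadjusted p below 0.05 there were 1, 1 and 2 members (edgeR) and 6.17%, 5.75% and 12.8% of all tested genes. The smallest member FDR of the average was that of MNT, at -0.40 (SE 0.116, FDR 0.178), and MNT passed with the passage as a block (-0.39, FDR 0.0477), where 2.37% of all tested genes did. MNT was lower with Fer-1 in 6 of 6 passages, at 52.3, 42.6 and 45.0 CPM in MM1R and 51.0, 41.3 and 39.7 CPM in MM1S, close to its untreated levels. MLXIP with Fer-1 was at 9.76, 10.3 and 9.29 CPM in MM1R, above every RSL3 library and below every untreated one. Of all tested genes in MM1R, 6.96% lay above RSL3 and 14.1% below untreated without overlap. MLXIP differed from RSL3 by 0.36 (FDR 0.729). MXI1 differed from RSL3 alone by -0.15 in each line, with intervals of -0.62 to 0.32, and MLX by -0.11 in MM1R and 0.03 in MM1S. Without replicate 2 of MM1R with Fer-1 no member passed either, and the averaged MNT value was -0.37 (FDR 0.314).

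Against untreated cells, the libraries with Fer-1 and RSL3 kept the directions seen for MXD1, MXI1, MLX and MLXIP, though both comparisons share the untreated libraries. In MM1R, 3 of the 10 members passed where 9.22% of all tested genes did, namely MXI1 at 0.78 (SE 0.224, FDR 0.0393), MLX at -0.65 (SE 0.156, FDR 0.016) and MLXIP at -0.66 (SE 0.138, FDR 0.00755). Without replicate 2 of that group, the library that stood apart, the values were 0.81 for MXI1 (FDR 0.0838), -0.74 for MLX (FDR 0.028) and -0.70 for MLXIP (FDR 0.0207). The MLX call was lost without replicate 2 of the untreated (FDR 0.064) or replicate 1 or 3 of the Fer-1 libraries (FDR 0.0532 and 0.0661), and the MXI1 call, with FDR of 0.0508 to 0.129, without any single untreated or Fer-1 library of MM1R and without replicate 2 or 3 of the untreated or replicate 3 of the Fer-1 libraries of MM1S. MXD1 stood at 1.04 in MM1R (FDR 0.234) and 0.94 in MM1S (FDR 0.355) and did not pass. With the passage as a block, under which 22.2% of all tested genes passed, MXD4 also passed in MM1R (-0.41, FDR 0.00423). In MM1S none passed where 4.61% of all tested genes did, with 4 members and 18.8% of all tested genes at an unadjusted p below 0.05. With the block, under which 14.7% of all tested genes passed, MXI1 (0.64, FDR 0.0224), MLX (-0.48, FDR 0.0106) and MXD4 (-0.28, FDR 0.038) passed.

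MXI1 was at 102, 102 and 115 CPM in MM1R and 122, 82.2 and 86.5 CPM in MM1S with Fer-1 and RSL3. MLX was at 60.9, 69.1 and 56.2 CPM in MM1R and 65.1, 87.4 and 70.5 CPM in MM1S, and MLXIP in MM1S was at 9.70, 8.25 and 9.44 CPM. MXD1 and MXI1 lay above and MYC, MLX and MLXIP below the untreated libraries without overlap in both lines, as 8.36% and 6.17% of all tested genes did in the higher and the lower direction.

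MYC itself was lower with Fer-1 and RSL3 than in every untreated library. It was at 565, 496 and 529 CPM in MM1R and at 262, 407 and 358 CPM in MM1S. The log2 fold changes, -0.36 in MM1R (FDR 0.597) and -0.86 in MM1S (SE 0.382, FDR 0.23), did not pass. The spread that entered these tests was shared with the RSL3 groups, and without replicate 1 of MM1S with RSL3 the MM1S value was -0.85 and passed (FDR 0.0104). It also passed when only the compared groups were fitted (-0.84, FDR 0.0195). The share of all tested genes that passed in these alternative fits is not given here. No group received Fer-1 alone or solvent alone, so effects of Fer-1, of solvent and of the combination cannot be told apart.

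The other relatives of MYC fell after RSL3. MYCL and MYCN, paralogues of MYC with the same MAX-dependent DNA binding, fell by 1.29 on the log2 scale each after RSL3, averaged over both lines (FDR 0.0129 and 0.0167), and were the 2 tested genes of 3 listed relatives. MYCL was at 5.51, 3.81 and 3.30 CPM untreated and 2.47, 1.73 and 1.08 CPM with RSL3 in MM1R, and at 13.0, 11.6 and 11.7 CPM untreated and 2.56, 6.34 and 5.49 CPM with RSL3 in MM1S. Its level with Fer-1 in replicate 2 of MM1R, the library that stood apart, was 5.77 CPM, against 1.871 and 1.202 CPM in the other 2. MYCN was near the detection limit, with 4 to 62 counts a library, and MYC exceeded both relatives in every library.

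**Figure D4:**
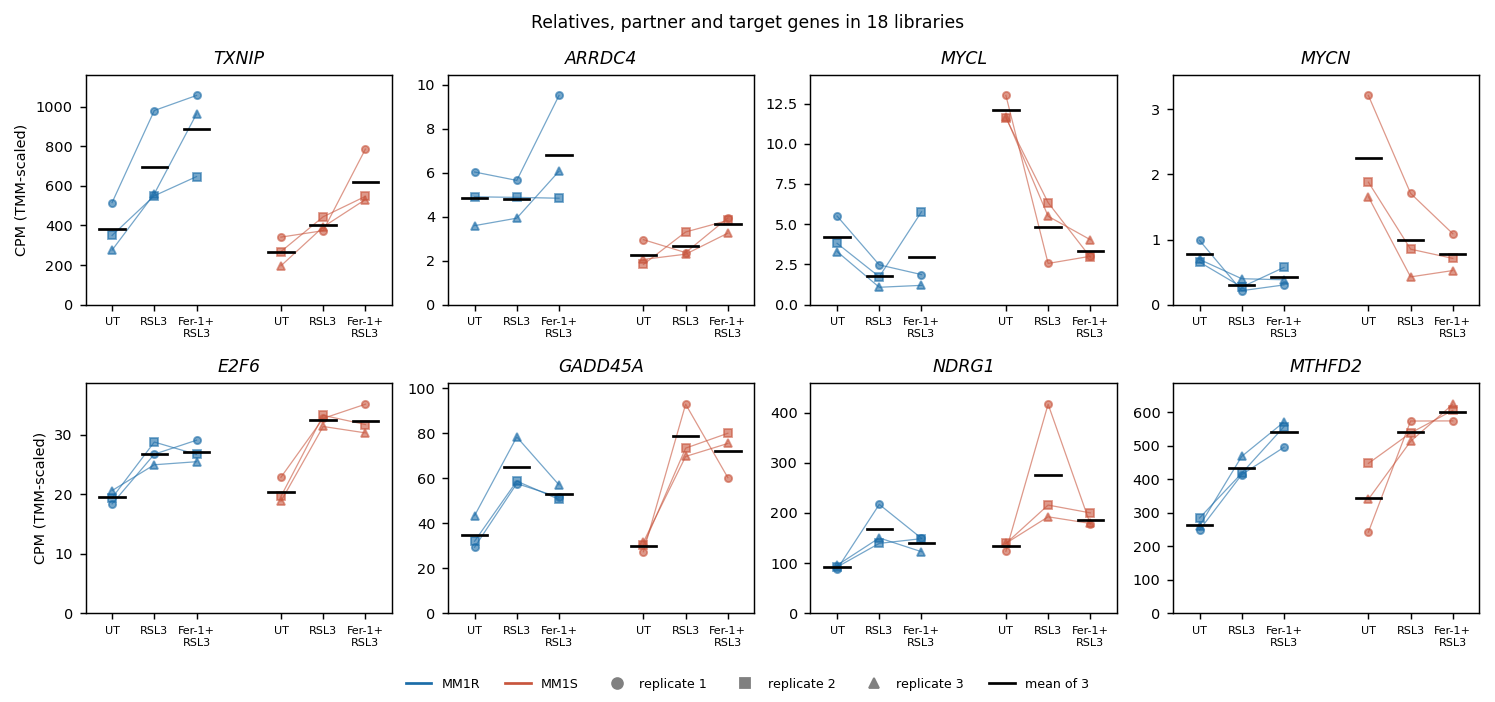
CPM (TMM-scaled, linear axes from 0) of MYCL and MYCN (relatives), E2F6 (MGA complex partner), TXNIP and ARRDC4 (MondoA and MLX targets), GADD45A and NDRG1 (MYC-repressed) and MTHFD2 (MYC-activated) in the 18 libraries, passages joined by lines and group means as black bars. E2F6, GADD45A and MTHFD2 lay above the untreated libraries in every treated library of both lines, TXNIP was higher with Fer-1 than with RSL3 alone in all 6 passages, and ARRDC4 did not separate after RSL3.

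The target TXNIP, an arrestin-type inhibitor of glucose uptake and a binder of thioredoxin, rose while its activators MLX and MLXIP fell. TXNIP was at 515, 350 and 276 CPM untreated, 980, 550 and 560 CPM with RSL3 and 1056, 647 and 963 CPM with Fer-1 and RSL3 in MM1R. In MM1S it was at 341, 268 and 196 CPM untreated, 374, 444 and 392 CPM with RSL3 and 785, 547 and 531 CPM with Fer-1 and RSL3. The averaged log2 fold change with RSL3 was 0.73 (FDR 0.018), and it was 0.57 (FDR 0.059) without replicate 1 of MM1R with RSL3. Against untreated cells the Fer-1 libraries differed by 1.22 in MM1R (FDR 0.0112, and 1.41 without replicate 2 of that group) and 1.21 in MM1S (FDR 0.0186). ARRDC4, the other classical MondoA target, was at 1.83 to 9.51 CPM and changed by 0.11 with RSL3 (FDR 0.774). Of the 6 listed MondoA and MLX targets, TXNIP alone passed and the median log2 fold change was 0.38.

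The counts of the partner lists are to be read against the 15.5% of all tested genes that passed, 8.7% higher and 6.81% lower. Of 8 tested MGA complex partners, E2F6 was the 1 that passed. It is a repressor of the E2F family that sits with MGA and MAX in the Polycomb-type complex. E2F6 rose by 0.56 (FDR 0.000186), from 18.4 to 22.9 CPM untreated to 24.95 to 33.2 CPM with RSL3. Of 14 tested SIN3-HDAC genes, the corepressor of the MXD and MNT dimers, none passed as higher and 3 passed as lower. These were SIN3B (-0.33, FDR 0.0037), SAP30 (-0.44, FDR 0.038) and the deacetylase gene HDAC2 (-0.30, FDR 0.0424). Among 13 tested coactivators the acetyltransferase gene KAT5 passed as higher (0.30, FDR 0.00706) and none passed as lower. The other 12 of the 13 values were below 0, and the median was -0.16. Of 14 genes of MYC turnover and phosphorylation, the phosphatase subunit PPP2R5A rose (0.25, FDR 0.0109), and the deubiquitinase USP28 (-0.35, FDR 0.0312), the kinase GSK3A (-0.24, FDR 0.0433) and the ubiquitin ligase subunit SKP2 (-0.58, FDR 0.0444) fell. With 1 library left out, GSK3A and SKP2 passed in 5 of 18 fits, HDAC2 in 7, USP28 in 10 and SAP30 in 11.

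**Figure D5:**
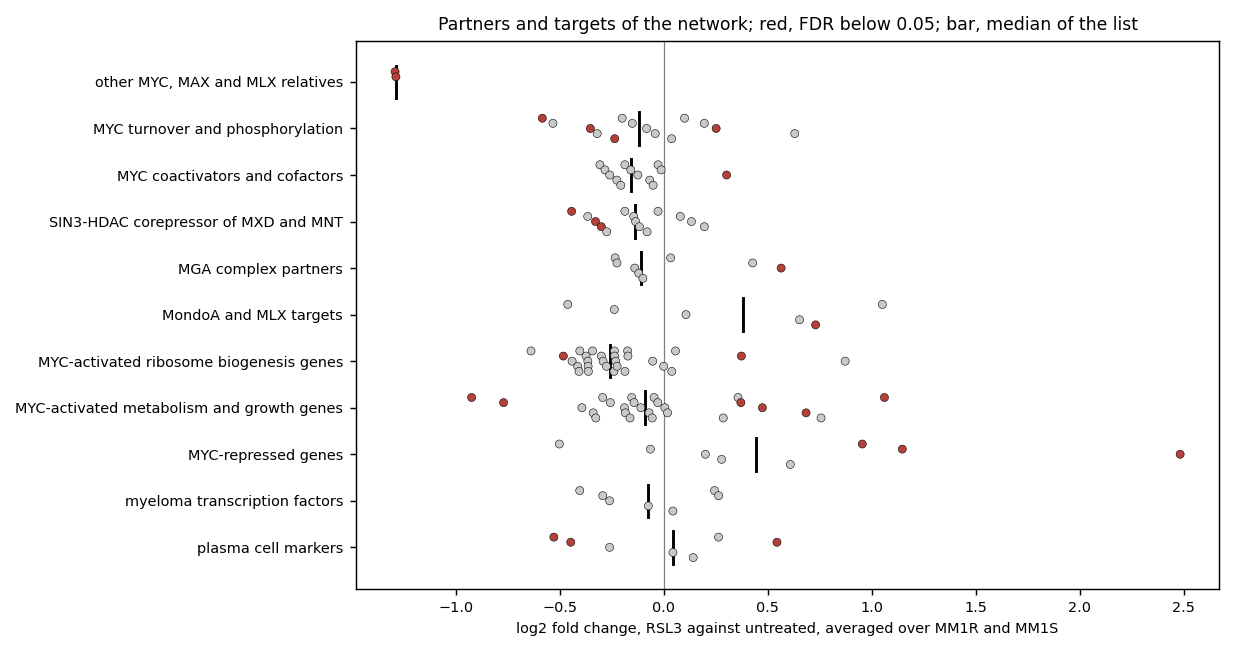
Log2 fold change of each tested gene of the partner and target lists with RSL3 against untreated, averaged over MM1R and MM1S, with genes at an FDR below 0.05 in red and the median of each list as a bar. The median of ribosome biogenesis genes was -0.26 with 1 gene passing in each direction, and that of MYC-repressed genes was 0.44 with 3 genes passing, all higher.

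Genes that MYC is known to activate had calls in both directions, and again 15.5% of all tested genes passed. Of 28 ribosome biogenesis genes, RRP12 rose (0.37, FDR 0.0435) and NOP16 fell (-0.48, FDR 0.0411), 24 of the 28 values were below 0, and the median was -0.26 against -0.00013 over all tested genes. Of 26 tested metabolism and growth genes, 4 passed as higher and 2 as lower, with a median of -0.09. The mitochondrial folate enzyme gene MTHFD2 rose by 0.68 (FDR 0.000728), the polyamine enzyme gene ODC1 by 0.47 (FDR 0.0136) and the mitochondrial chaperone gene HSPD1 by 1.06 (FDR 0.0237). The telomerase gene TERT (-0.77, FDR 0.0399) and the transferrin receptor gene TFRC (-0.92, FDR 0.0437) fell. With Fer-1 and RSL3 against untreated cells the TFRC value was -2.10 in MM1R (FDR 0.00701, and -2.78 without replicate 2 of that group) and -2.60 in MM1S (FDR 0.00309), and Fer-1 with RSL3 against RSL3 did not pass for TFRC (-1.42 averaged, FDR 0.0616). HSPD1 was at 4930 CPM in replicate 1 of MM1S with RSL3 against 1255 and 1383 CPM in the other replicates, and its averaged value without that library was 0.60. With 1 library left out, RRP12 passed in 4 of 18 fits, TFRC in 7, NOP16 in 8, TERT in 9 and HSPD1 in 13.

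Of 8 genes that MYC is known to repress, 3 passed as higher after RSL3 and none as lower, against the same 8.7% and 6.81% over all tested genes. GADD45A, a stress-induced growth arrest gene, went from 29.4, 32.1 and 43.4 CPM to 57.7, 58.8 and 78.4 CPM in MM1R and from 27.4, 30.2 and 31.7 CPM to 92.9, 73.4 and 69.7 CPM in MM1S, a log2 fold change of 1.15 (FDR 2.72e-05). NDRG1, a stress and differentiation gene, rose by 0.95 (FDR 0.000908). THBS1, which encodes the matrix protein thrombospondin-1, rose by 2.48 (FDR 0.00675) from 1 to 12 counts a library untreated to 5 to 109 counts with RSL3, a low level at which the fold change is poorly fixed. Of the 22 named list genes that passed, 11 passed in each of the 18 fits that left out 1 library, namely MYCL, MYCN, E2F6, SIN3B, KAT5, PPP2R5A, MTHFD2, ODC1, GADD45A, NDRG1 and THBS1, and the other 11 lost the call in at least 1 fit. None of the 7 myeloma transcription factors, IRF4 included, passed, and of the 7 plasma cell markers SDC1 (-0.45, FDR 0.0113) and TNFRSF17 (-0.53, FDR 0.0155) fell and CD38 (0.54, FDR 0.0408) rose.

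The genes whose profile over the 18 libraries was most like that of MYC were RRS1, ALDH1B1, DOLK, GEMIN4 and DIRAS2. The measure was the root mean square difference of log2 CPM values centred on each gene's mean, and it was 0.246, 0.253, 0.254, 0.268 and 0.283 for these 5, against 0.602 for a flat profile. RRS1 is also one of the 28 ribosome biogenesis genes. For MXD1 the closest genes were CLK1 (0.202), CLDN12 (0.282) and MPZL3 (0.289), against 0.863 for a flat profile. Among the members, MXI1 was closest to MXD1 (0.548) and MYC farthest (1.42). These values describe likeness over libraries that share treatments and passages, and replicate 1 of MM1S with RSL3, where MYC was lowest and MXD1 highest, weighs in each.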

How the data were processed

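RNA of 18 MM1R and MM1S samples was sequenced by the authors as 2 × 50 bp reads on a BGISEQ-500 and, per the methods and the submitters' processing notes, checked with FastQC 0.11.5, aligned to hg19 with STAR 2.7.3a and analysed with DESeq2. The counting tool, annotation and strand setting are not given in the sources used here. The deposited raw table holds whole-number counts per gene, the authors' second deposited table holds the same counts divided by size factors (0.834 to 1.08), a normalized signal. The 10 members and the gene lists were chosen with earlier results of these data known.

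Counts were tested with edgeR 4.0.16 in R 4.3.3: TMM scaling, filterByExpr with a minimum count of 10, quasi-likelihood fit of the 6 group means (12 residual degrees of freedom), Benjamini-Hochberg adjustment over 14281 genes. Of 43735 genes, 15877 were at 0 throughout and 13577 were removed by the filter. Library totals of 17635438 to 19368343 limit the precision of genes with few counts. Replicates were different passages, so p-values measure the spread between passages, estimated over all 6 groups of both lines, and not between donors. The main fit had no passage term, as the study's methods name none. Replicates of a group differed by more than sampling noise (chi-square per degree of freedom 7.66 to 159), so none was a duplicate. The labels give the passage, so equal replicate numbers of a line pair the samples, and the deviations of same-passage libraries correlated with a median of 0.25 in MM1R (0.0338 to 0.516) and 0.416 in MM1S (0.216 to 0.681) over 9 pairs each. Levels are TMM-scaled CPM, or CPM per kb of the canonical transcript, for MLXIP the longest basic one. Named were all 10 members, TXNIP and ARRDC4, up to 3 genes per list and direction with the smallest FDR among those passing in the averaged RSL3 comparison, and the genes most like MYC (5) and MXD1 (3). Scripts were tested on simulated data. Alternatives were DESeq2 1.42.0, RLE size factors, no low-count filter, the passage as a block, only the compared groups, limma 3.58.1 on log2(normalized + 1), and each library left out in turn.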

Additional observations from a re-analysis of the deposited data

How the results depend on the processing

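The averaged RSL3 comparison called 4 members, and MXD1, MXI1, MLX and MLXIP passed in it under all 24 alternatives, where the count ran from 4 to 5 with 1 library left out. With the passage as a block MXD4 and MNT passed in it as well. The counts within a line were less firm. They are given without the share of all tested genes under each setting, and that share moves with the setting too. In the main fit it was 3.36% for RSL3 in MM1R and 3.67% in MM1S, and with the block it was higher, as given above. A higher member count under a setting is therefore not by itself a result about the members. For RSL3 against untreated in MM1R, 2 members passed, 4 did without the filter on low counts, and 1 to 4 with 1 library left out. For MM1S the count was 0, against 4 under DESeq2, 3 without the filter, 4 with the replicate block and 0 to 3 with 1 library left out. Fer-1 with RSL3 against RSL3 gave 0 members, but 1 (MXD1) in MM1S without the filter, and for the average 2 (MNT and MXD1) without the filter and 1 (MNT) with the replicate block. Against untreated cells, Fer-1 with RSL3 gave 3 in MM1R (1 to 4 with 1 library left out) and 0 in MM1S, where DESeq2 called 1, the fit without the filter 3, the replicate block 3, the fit of only the compared groups 3 and the fits with 1 library left out 0 to 3. Between the untreated lines the count was 0, and 1 (MGA) under DESeq2, without the filter, with only the compared groups and without replicate 1 of MM1S with RSL3 (0 to 1 over those fits). The cause of these shifts was not tested. The line differences in response gave 0 under every alternative run. No member's called fold change reversed. The passage block could not be fitted between the untreated lines, since each passage belongs to 1 line, and apart from the values given above it changed no other member's call. Depth limits MYCN and THBS1, and among the members MLXIP has the fewest counts, and with 3 libraries a group 1 uneven library sets much of the spread.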
